A study of Homo sapiens with 6 samples.

Results

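FGFBP1, a carrier of fibroblast growth factors (FGFs), was described together with FGFBP3, the ligands FGF1, FGF2 and FGF5, the receptors FGFR1, FGFR2, FGFR3 and FGFR4, and the receptor-like gene FGFRL1, in breast cancer cells depleted of the RNA-binding protein SAM68. These 10 genes were taken by symbol from a table of 74852 loci. The set was selected on measured values, because FGFBP1 was among the genes with a large difference between the same 6 libraries, and the ligands and receptors were added around it by their role. The differences of the 10 genes are therefore given as a description, with their errors and without a p-value. An adjusted p threshold is used only to mark and count them beside all loci, which is no independent test of genes selected this way. The cells were MDA-MB-231, an established triple-negative breast cancer line with a mesenchymal appearance. In 3 si-CTRL cultures the cells received a pool of non-targeting siRNAs, and in 3 si-SAM68 cultures a pool of siRNAs against SAM68, whose gene is KHDRBS1. Both groups were transfected in 2 rounds with a lipid reagent and, by the sample labels, collected 24 h after the last round. The published methods give a longer time after transfection without naming a round, so whether the sources differ cannot be told. Depletion was transient and in a single line, and no source states that the 3 replicates were cultured apart, so the errors describe the spread between these libraries. In bulk RNA, fewer cells that express a gene and less RNA per cell cannot be told apart.

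FGFs are secreted proteins that bind heparan sulfate chains on the cell surface and in the matrix, where they are stored. FGFBP1 and FGFBP3 are secreted proteins that bind FGFs reversibly and can carry them from this store to their receptors. FGFR1 to FGFR4 are receptor tyrosine kinases that need a ligand and heparan sulfate to dimerise, and they signal through the adaptor FRS2 to the RAS and MAP kinase cascade. FGFRL1 binds FGFs and lacks the kinase domain. In breast cancer, FGF1 and FGF2 are known as growth and motility signals, and FGFBP1 as a factor that makes stored FGF available.

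The 4 siRNAs against SAM68 are shown because they define the treated group, and because a short match to them can lower other transcripts. They are written as in the study's list, 5′ to 3′. The letters match KHDRBS1 mRNA in sense, so the capitals mark bases 12 to 18, which face the seed, bases 2 to 8, of the opposite strand.
siSAM68_1: gcacccauaugGACGUUAu
siSAM68_2: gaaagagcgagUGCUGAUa
siSAM68_3: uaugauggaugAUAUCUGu
siSAM68_4: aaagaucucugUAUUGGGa
The first 3 matched 2 of 2 KHDRBS1 transcripts in full and siSAM68_4 matched 1 of 2. The 7 bases in capitals of at least 1 siRNA were found in the 3′ untranslated region of 7 of the 10 genes, against 29.7% of 11966 genes. FGF2 held 2 matches, to siSAM68_2 and siSAM68_3. FGF1 and FGFBP3 held 1 each, to siSAM68_3, FGFR3 held 1, to siSAM68_4, and FGF5, FGFR2 and FGFRL1 held 1 each, to siSAM68_2. Of these 7 genes, FGF2, FGF5 and FGFR2 had higher and the others lower means in si-SAM68. FGFBP1, with a region of 359 bases, FGFR1 and FGFR4 held none. The regions of FGF1 and FGFR3 had 3112 and 3087 bases, against a median of 1362 over all genes, and longer regions hold more matches by their length. The part of these matches in the differences of the genes was not tested.

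The 250 bases before the start of FGFBP1 and of FGFR3 are shown because these genes lay in opposite directions and their promoters differ in composition. Both are from RefSeq on GRCh38.p14, 5′ to 3′ on the strand of the gene, and capitals mark matches to the motifs named after them.
FGFBP1, minus strand, chr4:15938741-15938990: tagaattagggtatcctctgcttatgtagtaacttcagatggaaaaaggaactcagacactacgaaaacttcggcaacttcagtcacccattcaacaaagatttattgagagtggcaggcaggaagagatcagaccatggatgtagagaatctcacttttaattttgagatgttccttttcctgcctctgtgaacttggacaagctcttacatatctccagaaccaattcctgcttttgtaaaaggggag
FGFR3, plus strand, chr4:1793043-1793292: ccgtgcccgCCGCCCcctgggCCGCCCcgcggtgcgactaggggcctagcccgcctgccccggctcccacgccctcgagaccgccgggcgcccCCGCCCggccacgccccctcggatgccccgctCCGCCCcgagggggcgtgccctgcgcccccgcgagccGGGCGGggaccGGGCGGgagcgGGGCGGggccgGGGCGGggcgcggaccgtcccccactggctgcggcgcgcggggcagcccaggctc
Searches were made on both strands, and none of the motifs is contained in another. The GC box, GGGCGG, was found 8 times in the FGFR3 window, which had a GC content of 86.8%, and not in the FGFBP1 window, which had one of 40.8%. Among 35116 promoters of this length, 42.6% held a GC box and the median GC content was 58.0%. The windows of FGF1, which was lower in si-SAM68 like FGFR3, had a GC content of 44.8% to 60.8%. Some of them held a GC box and others none. A link between composition and direction was not tested. The AP-1 motif, TGANTCA, was in neither window, and in 6.57% of all promoters. The TATA box, TATAAA, was also in neither of these windows, against 10.7% of all promoters. The E-box, CACGTG, was likewise in neither, and in 6.34% of all. A match to these letters is no evidence of binding, and a window without them says nothing of the factors.

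The values are read counts per locus that the authors divided by a size factor for each library, here called normalized read counts. Between 52625492 and 82568487 reads fell in loci in each library. In si-SAM68 replicate 2 the ribosomal RNA locus held 15.1% of reads, against 1.83% to 3.17% in the other 5 libraries. The differences of the 10 genes are therefore also given without that library. KHDRBS1 had 15660, 14483 and 14737 normalized reads in the si-CTRL libraries and 583, 602 and 670 in the si-SAM68 libraries. It fell by 4.60 on the log2 scale (SE 0.083, limma adjusted p = 2.13e-09), and the labels of all 6 libraries matched this. Of the line's markers, VIM, CD44, AXL and SPARC, which mark mesenchymal-like cells, summed to 297186 to 373039 in si-CTRL and 311021 to 339590 in si-SAM68 libraries. Of 6 luminal and epithelial markers, 4 lay below the minimum level tested, PGR was at 0, and the sum was 2873 to 3999 against 2804 to 3627. ERBB2 and GATA3 were expressed, with means of 2817 and 406 over all 6 libraries, so this list was not low throughout. Neither passed the test (limma adjusted p = 0.997 and 0.669). Of 6 markers of leukocytes, endothelium and support cells, the sum was 948 to 1085 against 798 to 947, and CD3E and PTPRC lay below the minimum. The 4 tested genes of that list all had lower means in si-SAM68, with a median log2 difference of -0.73, and ACTA2 passed the test (log2 -0.70, SE 0.151, adjusted p = 0.0183). CDH5 (log2 -1.09, adjusted p = 0.0756) and PECAM1 (log2 -0.75, adjusted p = 0.250) did not pass it, although their groups did not overlap, and PDGFRB differed by -0.07. The part of these markers in the results below was not tested.

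Of the carriers above the minimum level, FGFBP1 was higher in all si-SAM68 libraries, and FGFBP3 overlapped between the groups. FGFBP1 (GSHG0023148, hg19 chr4:15937195-15940363) had 36.2, 29.1 and 35.2 normalized reads in the si-CTRL libraries and 107, 93.8 and 123 in the si-SAM68 libraries. All 3 si-SAM68 libraries lay above all 3 si-CTRL libraries. The means were 33.5 ± 3.88 (SD, n = 3) and 108 ± 14.6 (SD, n = 3), a ratio of 3.22. On the log2 scale, after adding 1 read, the difference was 1.66 (SE 0.202, 95% confidence interval 1.20 to 2.11), and 1.75 without si-SAM68 replicate 2. The reads behind these values were 29 to 37 in si-CTRL and 102 to 110 in si-SAM68. FGFBP3 (GSHG0004249, chr10:93666345-93669258) is the related carrier. It had 66.2, 113 and 133 normalized reads in si-CTRL and 83.6, 112 and 86.0 in si-SAM68, and the groups overlapped. Its difference was -0.10 (SE 0.258, interval -0.68 to 0.47). The interval holds values of either sign, so no direction is given for this gene. The si-CTRL libraries of FGFBP3 were spread widely, with an SD of 34.3 around a mean of 104. FGFBP2, the third carrier, was at 0 in all 6 libraries.

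**Figure D1:**
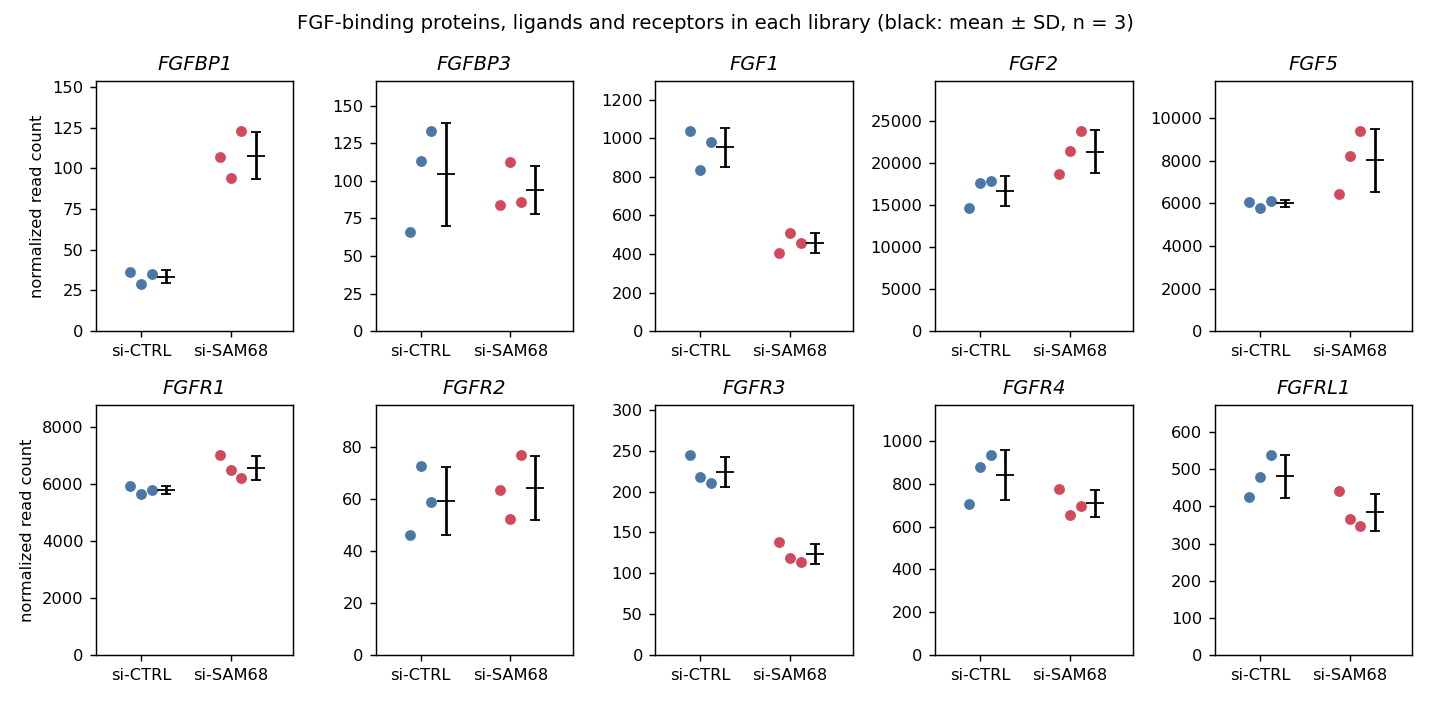
Each panel shows a gene's normalized read count (y axis from 0, its own scale) in the 3 si-CTRL (blue) and 3 si-SAM68 (red) libraries, replicates 1 to 3 from left to right, with black marks for mean ± SD (n = 3). FGFBP1 was at 29.1 to 36.2 in si-CTRL and 93.8 to 123 in si-SAM68, whereas FGF1 and FGFR3 had all si-SAM68 libraries below all si-CTRL libraries.

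Among the ligands, FGF1 was lower in si-SAM68, while FGF2 and FGF5 had somewhat higher values. FGF1 (GSHG0025144, chr5:141971740-142077635), acidic FGF, binds all the receptors of the family. It had 1037, 838 and 982 normalized reads in si-CTRL and 407, 511 and 459 in si-SAM68, with no overlap. The means were 952 ± 103 (SD, n = 3) and 459 ± 51.8 (SD, n = 3). The level in si-SAM68 was 48.2% of that in si-CTRL, a log2 difference of -1.05 (SE 0.121, interval -1.32 to -0.78), or -1.13 without si-SAM68 replicate 2.

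FGF2 (GSHG0022827, chr4:123747863-123819390), basic FGF, is a ligand that leaves the cell without a signal peptide. Its si-CTRL libraries had 14628, 17606 and 17815 normalized reads and its si-SAM68 libraries 18662, 21404 and 23754. The lowest si-SAM68 library lay just above the highest si-CTRL library, and the log2 difference was 0.35 (SE 0.108, interval 0.11 to 0.59). FGF2 did not pass the threshold used below, but did so when the replicate number was added as a block. FGF2 overlaps the antisense gene NUDT6, and since the sources used here do not say whether strand was used in counting, reads of the pair cannot be told apart. FGF5 (GSHG0133580, chr4:81187742-81212170), a secreted ligand known from hair growth, had 6054, 5805 and 6126 normalized reads in si-CTRL and 6454, 8223 and 9393 in si-SAM68. Its si-SAM68 libraries differed more among themselves (SD 1480) than its si-CTRL libraries (SD 168). The difference was 0.40 (SE 0.122, interval 0.13 to 0.67). Its si-SAM68 replicate 1 lay nearest to the si-CTRL libraries.

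Of the receptors, FGFR3 was lower in si-SAM68, and the others differed by smaller amounts or not beyond the spread. FGFR3 (GSHG0022405, chr4:1795034-1810599) had 245, 218 and 210 normalized reads in si-CTRL and 138, 119 and 114 in si-SAM68. All si-SAM68 libraries lay below all si-CTRL libraries. The means were 224 ± 18.3 (SD, n = 3) and 124 ± 12.8 (SD, n = 3). The difference was -0.86 (SE 0.142, interval -1.17 to -0.54), and -0.83 without si-SAM68 replicate 2.

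FGFR1 (GSHG0029535, chr8:38268656-38326352), the receptor with the highest level here, had 5952, 5651 and 5798 normalized reads in si-CTRL and 7039, 6517 and 6205 in si-SAM68. The groups did not overlap, and the difference was 0.18 (SE 0.076, interval 0.01 to 0.35). FGFR4 (GSHG0024509, chr5:176513873-176525143), which binds FGF1 among others, had 707, 879 and 935 in si-CTRL and 775, 653 and 696 in si-SAM68. The groups overlapped, with a difference of -0.24 (SE 0.124, interval -0.52 to 0.04). FGFRL1 (GSHG0022396, chr4:1004940-1020686), the receptor without a kinase, had 425, 478 and 539 in si-CTRL and 441, 366 and 346 in si-SAM68. Its groups overlapped through si-SAM68 replicate 1 and si-CTRL replicate 1, with a difference of -0.32 (SE 0.133, interval -0.62 to -0.03). FGFR2 (GSHG0118933, chr10:122483324-123535190) was low, at 46.2, 72.6 and 58.9 in si-CTRL and 63.5, 52.4 and 77.1 in si-SAM68. Its difference was 0.12 (SE 0.236, interval -0.40 to 0.65), and its locus in the table also spans WDR11, WDR11-AS1 and ATE1, so it is uncertain which gene the reads come from.

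**Figure D2:**
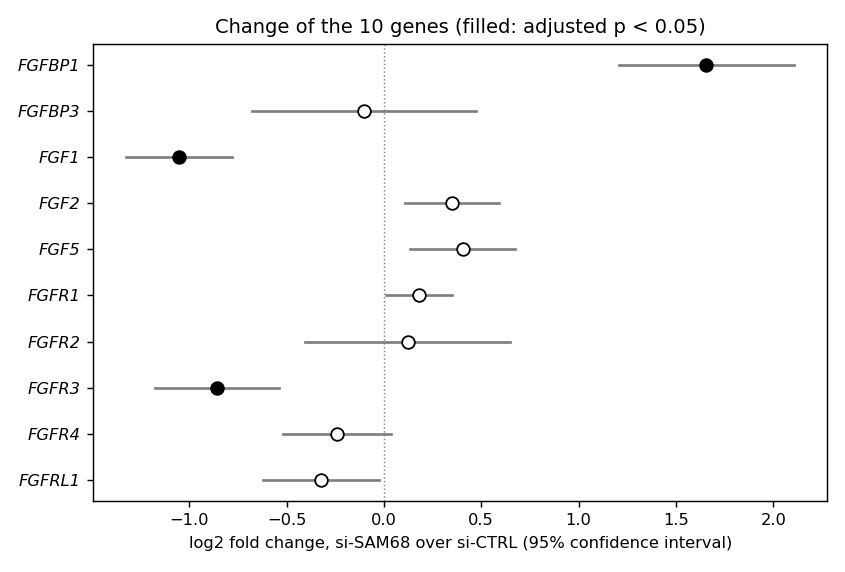
The x axis gives the log2 fold change of si-SAM68 over si-CTRL and the lines its 95% confidence interval, for the 10 genes in order of role, with filled points where the adjusted p of limma was under 0.05. FGFBP1 lay at 1.66, FGF1 at -1.05 and FGFR3 at -0.86, and the other 7 points lay between -0.32 and 0.40.

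Over the 10 genes, 3 had an adjusted p under 0.05 in limma, FGFBP1 as higher and FGF1 and FGFR3 as lower. Across the 18849 loci tested, the share past this threshold was 10.7%, with 4.47% higher and 6.23% lower in si-SAM68. The same 3 genes passed the thresholds of the study (fold change of 1.5 or more, unadjusted p of 0.05 or less), as did 7.67% of loci. Here the thresholds were applied to the limma fit. The resulting 1445 loci are more than the regulated genes the study lists, so these are not the study's own calls. The groups were apart in 6 of the 10 genes, against 33.9% of loci. Since the genes were selected on this contrast, nothing is read from these counts. The median difference of the 10 genes was 0.01 on the log2 scale, and that of all loci was also 0.01, with 5 genes above 0 and 5 below. The count past the threshold was 5 without si-CTRL replicate 1, with FGF5 and FGFR4 added, and the share of all loci was then 15.0%.

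Levels can be set side by side only per length, so counts were divided by the exon length of each gene in GENCODE. In si-CTRL, FGF2 was highest, with 2462 ± 263 normalized reads per kb (SD, n = 3), followed by FGF5 with 1115 ± 31.3 and FGFR1 with 890 ± 23.0. FGFR4 had 263 ± 37.2, FGF1 191 ± 20.6, FGFRL1 122 ± 14.5, FGFR3 50.3 ± 4.10, FGFBP3 40.9 ± 13.5, FGFBP1 24.6 ± 2.85 and FGFR2 8.84 ± 1.97. In this order the ranges of neighbours overlapped between FGFR3 and FGFBP3 and between FGFBP3 and FGFBP1. In si-SAM68, FGFBP1 had 79.3 ± 10.7 per kb, in the seventh place instead of the ninth, and FGF1 had 91.9 ± 10.4. The ranges of FGFRL1 and FGF1 and of FGF1 and FGFBP1 overlapped there. FGF2 kept the first place, with 3140 ± 376 per kb, so the RNA of the carrier remained far below that of the ligand in both groups. Reads of NUDT6 may add to the FGF2 value, and reads of other genes in its locus to that of FGFR2.

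**Figure D3:**
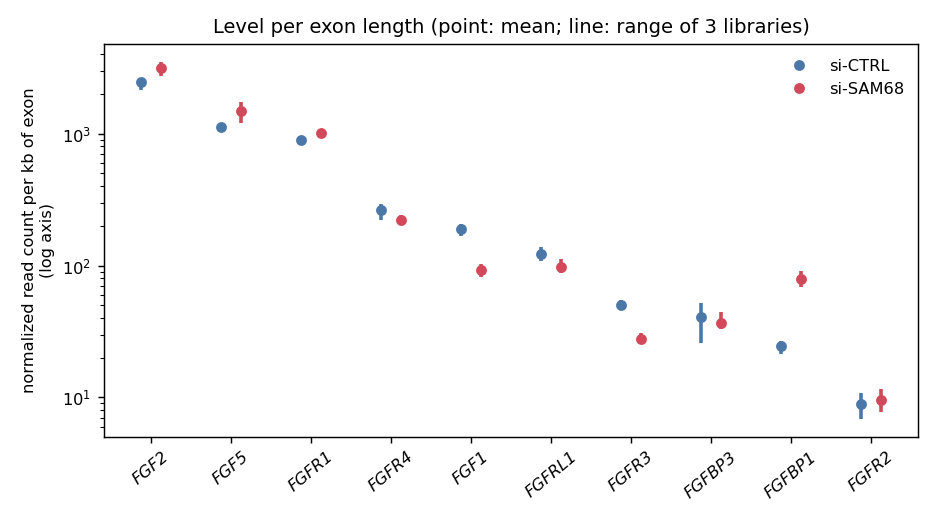
The y axis (log scale) gives normalized reads per kb of exon and the x axis the 10 genes in the order of si-CTRL, with points for the mean and lines for the range of 3 libraries. FGF2 lay at 2462 in si-CTRL and 3140 in si-SAM68, and FGFBP1 moved from 24.6 to 79.3.

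Other genes of the pathway were then examined in lists made by role: ligands, co-receptors and proteoglycans, enzymes of heparan sulfate, adaptors and transducers, and targets with feedback inhibitors. They were made with earlier results of these data and the study's table of regulated genes known, and FGF1, DUSP6 and SPRY4 are in that table, so the counts are not independent evidence of a direction. Of 104 genes, FGFBP2 included, 76 were tested and 13 had an adjusted p under 0.05, 2 higher and 11 lower, beside 10.7% of all loci, 4.47% higher and 6.23% lower. The count was 8 without si-SAM68 replicate 3, where 3.32% of all loci passed, and 11 without si-SAM68 replicate 2, where 4.32% passed. The median difference of the 76 was -0.12, against 0.01 for all loci.

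Of 19 further ligands, 16 lay below a mean of 10 normalized reads, 4 of them at 0 in every library, and none of the 16 was above 15.5 in any library. Of the 3 tested, FGF11, an FGF that is kept inside the cell, rose from 208 ± 16.8 to 383 ± 35.2 normalized reads (SD, n = 3; log2 0.88, SE 0.125, adjusted p = 0.00297). Its libraries had 192, 226 and 204 normalized reads in si-CTRL and 423, 359 and 366 in si-SAM68. The locus also carries the gene SPEM1, so the reads are those of the pair. FGF12 (log2 -0.14) and FGF18 (log2 -0.68, SE 0.439) did not pass the test.

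Among co-receptors and heparan sulfate proteoglycans, 3 of 14 tested passed, all lower, beside 6.23% of all loci lower and 4.47% higher. SDC2, syndecan 2, a core protein that carries heparan sulfate, had 137, 205 and 177 normalized reads in si-CTRL and 62.5, 53.4 and 51.4 in si-SAM68. It fell by 1.60 on the log2 scale (SE 0.191, adjusted p = 0.00123). FLRT2, a membrane protein that can bind FGF receptors, fell from 369 ± 96.3 to 184 ± 22.3 (log2 -0.97, adjusted p = 0.0108). ANOS1, a matrix protein known to modulate FGFR1 signalling, fell from 1089 ± 192 to 701 ± 22.9 (log2 -0.62, adjusted p = 0.0136). For both, si-CTRL replicate 1 was the highest library. FLRT2 missed the threshold without si-SAM68 replicate 3 (adjusted p = 0.0663), and ANOS1 missed it without si-SAM68 replicate 1 (0.0593) or 3 (0.0682). The list's highest gene, SDC4, did not pass (37631 ± 4855 against 31710 ± 1426, adjusted p = 0.157).

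Of 16 enzymes of heparan sulfate tested, 2 passed, both lower, beside 6.23% of all loci lower and 4.47% higher. The median difference of the list was 0.09. HPSE, the heparanase that cleaves the chains, had 644, 685 and 792 normalized reads in si-CTRL and 426, 432 and 422 in si-SAM68 (log2 -0.72, SE 0.107, adjusted p = 0.00365). HS3ST3A1, a 3-O-sulfotransferase that modifies them, fell from 1881 ± 119 to 1311 ± 35.9 (log2 -0.52, adjusted p = 0.00572). GLCE, the epimerase of the chains and the list's highest gene, did not pass (log2 -0.20, adjusted p = 0.135; its locus also carries MIR548H4). With the replicate number as a block, SULF2, a sulfatase that edits the chains, passed as well (adjusted p = 0.0350, against 0.0769 without the block).

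Of 23 adaptors and transducers tested, 1 rose and 1 fell past the threshold, beside 4.47% of all loci higher and 6.23% lower. FRS2, the docking protein of the FGF receptors, rose from 542 ± 34.4 to 766 ± 18.6 normalized reads (log2 0.50, SE 0.095, adjusted p = 0.0117). It missed the threshold without si-SAM68 replicate 2 (adjusted p = 0.0611) or 3 (0.0594). MAP2K1, the kinase MEK1, fell from 3759 ± 206 to 2743 ± 6.59 (log2 -0.45, SE 0.076, adjusted p = 0.00655). NRAS, the highest gene of the list, had a difference of 0.05 (adjusted p = 0.740). With the replicate block, AKT1, a kinase downstream of the receptors, passed as lower (adjusted p = 0.0495, against 0.0659 without the block).

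Among targets and feedback inhibitors of FGF signalling, which are also targets of other growth factors, 5 of 20 tested fell and none rose past the threshold, beside 6.23% of all loci lower and 4.47% higher. By sign alone, 17 differences were below 0 and 3 above, with a median of -0.17, while over all loci 9258 were below 0 and 9591 above, with a median of 0.01. EGR1, an immediate-early transcription factor, had 1767, 1110 and 1055 normalized reads in si-CTRL and 387, 508 and 391 in si-SAM68 (log2 -1.58, SE 0.191, adjusted p = 0.00132). FOS, of the same kind, fell from 184 ± 19.9 to 91.5 ± 13.2 (log2 -1.01, adjusted p = 0.00627). DUSP6, a phosphatase of ERK, had 6648, 5090 and 5983 in si-CTRL and 2705, 3496 and 3563 in si-SAM68 (log2 -0.86, SE 0.128, adjusted p = 0.00357). SPRY4, an inhibitor of receptor signalling, fell from 3193 ± 498 to 1925 ± 319 (log2 -0.73, adjusted p = 0.0127), and SPRED3, a related inhibitor, from 2349 ± 636 to 1448 ± 29.1 (log2 -0.67, adjusted p = 0.0249). The si-CTRL replicate 1 was the highest library for EGR1, DUSP6, SPRY4 and SPRED3. SPRY4 missed the threshold without si-SAM68 replicate 1 (adjusted p = 0.0513) or 3 (0.0614), and SPRED3 without any of the 3 si-SAM68 libraries (0.0749 to 0.110). PHLDA1, the highest gene of the list, did not pass (log2 -0.30, adjusted p = 0.253).

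**Figure D4:**
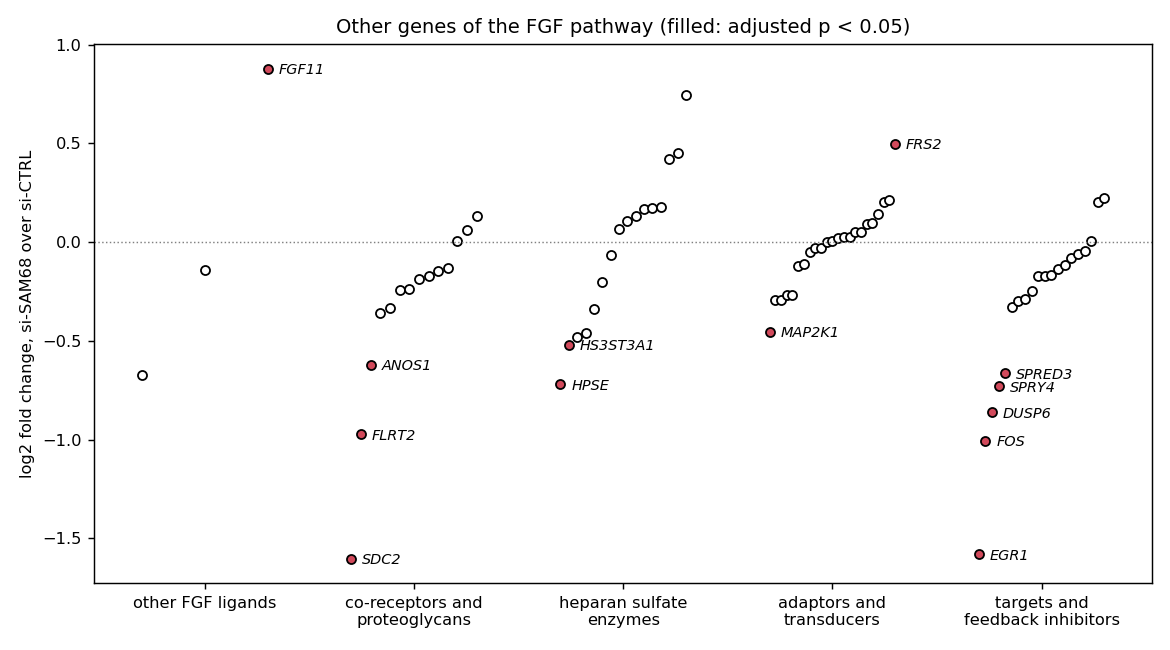
Each point is a tested gene of the pathway outside the 10, placed by list along the x axis, with its log2 fold change of si-SAM68 over si-CTRL on the y axis and a filled point where the adjusted p of limma was under 0.05. Of the 13 filled points, FGF11 and FRS2 lay above 0 and 11 below, down to SDC2 at -1.60 and EGR1 at -1.58.

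Beside the 3 members past the threshold, the nearest tested loci with a single gene symbol were read from the same table. Loci that were untested, or that carry several symbols or none, were passed over, so closer loci can lie between. FGFBP2, which was at 0 in all 6 libraries, is such a gene between FGFBP1 and TAPT1. FGFBP1 lay between FAM200B (245 kb away, log2 -0.11, adjusted p = 0.533) and TAPT1 (222 kb, 0.01, adjusted p = 0.982). FGFR3 lay between TACC3 (48.1 kb, 0.01, adjusted p = 0.970) and LETM1 (2.61 kb, 0.12, adjusted p = 0.541). FGF1 lay between ARHGAP26 (72.3 kb, -0.23, adjusted p = 0.298) and SPRY4 (267 kb), the feedback inhibitor given above, the only neighbour of the 6 that passed the test.

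The pattern of FGFBP1 over the 6 libraries was most like those of EVI2A (Pearson r = 0.999), SPAG1 (0.998), GPR1 (0.997), ANXA3 (0.996) and POLE2 (0.996), among 12112 loci with a symbol of their own and a mean of at least 50. EVI2A rose from 6914 ± 332 to 12728 ± 867 normalized reads, and POLE2 went from 3912 ± 70.9 to 4694 ± 146. The pattern of FGF1 was most like those of BMPER, SMTN, HRH1, NLRP3 and CORO2B, with r of 0.998 to 1.00. NLRP3, a sensor of the inflammasome, had 915 ± 113 normalized reads in si-CTRL and 434 ± 49.8 in si-SAM68. The r of FGFBP1 with FGF1 was -0.95 and with FGFR3 -0.95. These r are over 6 points in 2 groups and follow mainly the difference between the groups.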

How the data were processed

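RNA from 3 si-CTRL and 3 si-SAM68 cultures of MDA-MB-231 cells was sequenced after a stranded poly(A) library kit, per the labels. The deposited table holds, per locus of FAST DB (hg19), a signal: the authors' read counts divided by a DESeq2 size factor. The submitters' processing notes name STAR 2.4.0, SAMtools, Picard, FastQC and DESeq2; the counting program and its use of strand are not given in the sources used here. A locus with an ID and no symbol was kept (4397 of the loci tested, 2.59% to 3.70% of reads), and no column of the table was unused. Dividing each library by its smallest step gave whole reads for 100% of values (tolerance 0.1); for si-SAM68 replicate 1 the step is close to 1, so its values are nearly the reads themselves.

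Loci with a mean normalized count of at least 10 (18849 of 74852; 41493 were at 0 everywhere) were tested with limma 3.58.1 in R 4.3.3 on log2(value + 1), with a trend, and p-values were adjusted by Benjamini-Hochberg over all of them; fold changes of low genes are understated on this scale. The recovered reads were also tested with edgeR 4.0.16, which called 2026 loci at an adjusted p under 0.05, and DESeq2 1.42.0, which called 2811, against 2017 by limma. An exact permutation test of 3 against 3 libraries cannot give less than 0.1 and was not used. On simulated counts for this comparison over 18849 loci, limma recovered 33 of 67 genes changed by 1.5-fold, 58 of 67 by 2-fold and 65 of 66 by 3-fold, with 17 false calls. The changed genes were a far smaller share of loci than the 10.7% called in the data. They were drawn from loci above a cut-off higher than the minimum mean, so recovery between that minimum and the cut-off was not measured. These rates do not carry over to the real calls. Replicate numbers are shared by the groups: deviations from the group means correlated between same-numbered libraries at 0.105, 0.231 and 0.125 and between others at -0.125 to 0.00687, so the numbers were taken to pair the libraries. Deviations cancel within each group, so the negative correlations follow in part from the positive ones. The labels do not say what a number marks, so the pairing is uncertain. The study names no covariate, so errors, intervals and counts come from the fit without a block unless a block is named.

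The 10 genes and all lists were chosen with earlier results of these data known. Named are KHDRBS1, the 10 genes, and the pathway genes past the threshold in each list (at most 5) with the list's highest gene. The 5 loci most like FGFBP1 and FGF1 are also named, as are the nearest tested single-symbol loci beside the 3 genes past the threshold. FGF12, FGF18, FGFBP2, PGR, ERBB2, GATA3, ACTA2, CDH5, PECAM1, PDGFRB, CD3E, PTPRC, SULF2 and AKT1 were named after their values were seen or as list members. Alternatives changed the pseudocount, minimum, scaling, variance model, test and libraries, and added a replicate block. Exon lengths and 3′ untranslated regions come from GENCODE v29 (GRCh38), used for length and sequence only, and promoters from RefSeq. The study's control siRNAs and other sequences were not used here.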

Additional observations from a re-analysis of the deposited data

How the results depend on the processing

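Of 170 values of the 10 genes under alternatives, 167 kept their direction. FGFR2 turned to -0.0416 when si-CTRL replicate 1 was dropped and to -0.0149 when si-SAM68 replicate 3 was, and FGFBP3 to 0.10 without si-CTRL replicate 3; both overlapped between groups, and the cause was not tested. Leaving out 1 library at a time gave -0.0416 to 0.28 for FGFR2, -0.40 to 0.10 for FGFBP3 and -4.66 to -4.56 for KHDRBS1. Without si-SAM68 replicate 2 the differences were 0.34 for FGF2, 0.38 for FGF5, 0.19 for FGFR1 and 0.26 for FGFR2. They were then -0.24 for FGFBP3, -0.19 for FGFR4 and -0.29 for FGFRL1. Over all alternatives the difference was 1.55 to 1.75 for FGFBP1, -1.14 to -0.97 for FGF1 and -0.94 to -0.79 for FGFR3, which describes the values the genes were chosen by and is no support for them. The count of the 10 genes past the threshold was 3 to 5 when 1 library was left out: 5 without si-CTRL replicate 1 (with FGF5 and FGFR4) and 4 without si-SAM68 replicate 1 (with FGF5). DESeq2 gave 5 (with FGF2 and FGF5). The count of pathway genes was 8 to 17 when 1 library was left out, 8 without si-SAM68 replicate 3 and 17 without si-CTRL replicate 1; it was 9 without a trend, where FLRT2 (adjusted p = 0.0530), ANOS1 (0.0603), SPRY4 (0.0698) and SPRED3 (0.101) missed, and 18 with DESeq2. FGF11, SDC2, HS3ST3A1, HPSE, MAP2K1, DUSP6, EGR1 and FOS passed in all 17 alternative fits. By the study's thresholds, applied to the main fit, 10 of the 13 pathway genes passed, beside 7.67% of all loci. HS3ST3A1, MAP2K1 and FRS2 did not, because their fold changes were too small. With the replicate block, that is in the paired fit, 4 of the 10 genes passed (FGF2 was added), and 15 pathway genes, with SULF2 (adjusted p = 0.0350) and AKT1 (0.0495) added, beside 1697 of the 18849 loci (2017 without the block); KHDRBS1 and the other calls did not change. Over all loci, 627 (3.32%, without si-SAM68 replicate 3) to 2834 (15.0%, without si-CTRL replicate 1) passed. Without a trend 899 passed (4.77%), with DESeq2 2811 (14.9%) and with no minimum 1500 (4.50%). Counts of 29 to 37 reads set the precision of FGFBP1 in si-CTRL, and those of 37 to 75 that of FGFR2.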

Other observations

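FGF1 has 4 RefSeq transcript starts with a promoter window of 250 bases on GRCh38.p14, and the table, which gives 1 value per gene, does not show which of them these cells use. The window at chr5:142644240-142644489 held 1 AP-1 motif, as spelled out above, 41 bases before the start, and 1 GC box, 180 bases before it. The window at chr5:142686091-142686340 held 1 GC box, and the others held none of the 4 motifs searched. Their GC content was 44.8% to 60.8%.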
